A study of Homo sapiens with 6 samples.

Results

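The sites described here are the chromosome 8 peaks of a chromatin isolation by RNA purification (ChIRP-seq) experiment on the long noncoding RNA CRLM1. A peak was taken when it lay on chromosome 8 (GRCh38), and was put on the short arm (8p) when its midpoint fell below 45 Mb and on the long arm (8q) when it fell at or above 45 Mb. By this rule 2336 of the 36781 main-chromosome peaks were on chromosome 8, of which 506 lay on the short arm and 1830 on the long arm. Some were called in more than 1 list, so the 2336 peaks make up 2089 distinct positions, and 0 of them crossed the boundary between the arms. The members were chosen by where the peak caller placed them. Counts and densities are therefore given as a description, without a test.

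The cells were HCT116, an established human colorectal carcinoma line, and all samples came from this 1 line, with no treatment of the living cells named in the labels. There were 6 libraries in 3 groups of 2 replicates: chromatin pulled down with CRLM1 antisense oligos, chromatin pulled down with LacZ antisense oligos as a negative control, and Input chromatin. The data comprised 4 peak lists, since each CRLM1 pull-down was called once against the Input and once against the LacZ library of the same replicate number. They are called Input-1, LacZ-1, Input-2 and LacZ-2 below, by control and replicate number, so that Input-1 holds the peaks of the first CRLM1 pull-down called over the first Input library. Both lists of a replicate share the pull-down library, so their values stand side by side here and are not independent of each other. The lists carry no read counts, so the depth of each library is unknown. They also hold no LacZ peaks called against Input and no copy number of the cells.

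ChIRP pulls down a chosen RNA with tiled biotinylated DNA probes and sequences the DNA crosslinked to it. Chromosome 8 has a long arm that is often gained and a short arm that is often lost in epithelial cancers, and HCT116 is known to carry extra 8q material. The MYC gene, a transcription factor that drives cell growth, lies in distal 8q among long noncoding RNA genes and distant enhancers that are active in colorectal cancer. A region present in more copies gives more DNA in any pull-down and in Input alike.

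The CRLM1 probes were looked for first, because they decide what the pull-down can retain directly. The study lists 9 of them, each with 59 letters. In each of the 4 lists a single chromosome 1 peak, at the CRLM1 gene, held 15-base matches to all 9 probes. None of the 2336 chromosome 8 peaks did: 0 of them held 15 consecutive bases of any CRLM1 probe on either strand, against 29 of the 36781 peaks of all main chromosomes. A match to a LacZ probe was found in 1 chromosome 8 peak, against 9 peaks in all.

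Against Input, the long arm of chromosome 8 carried more peaks per Mb than the short arm in both replicates. Against LacZ, the arms of replicate 1 carried peaks at nearly the same density. In Input-1, 113 peaks lay on the short arm and 699 on the long arm. In Input-2 these were 232 and 758. The LacZ-called list of replicate 1 held 156 and 352, and that of replicate 2 held 5 and 21. The long arm is the larger one, with 100.0 Mb of ungapped sequence against 44.8 Mb, so that 69.1% of the chromosome would be the share of peaks spread evenly over it.

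The long arm held 86.1% of the Input-1 peaks (exact 95% binomial interval 83.5 to 88.4) and 76.6% of the Input-2 peaks (73.8 to 79.2). Against LacZ it held 69.3% in replicate 1 (65.1 to 73.3) and 80.8% in replicate 2 (60.6 to 93.4). These intervals cover counting error only and treat peaks as independent, which neighbouring peaks of 1 library may not be. Both Input-called shares lay above the share of the sequence, and both LacZ-called intervals included it.

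**Figure D1:**
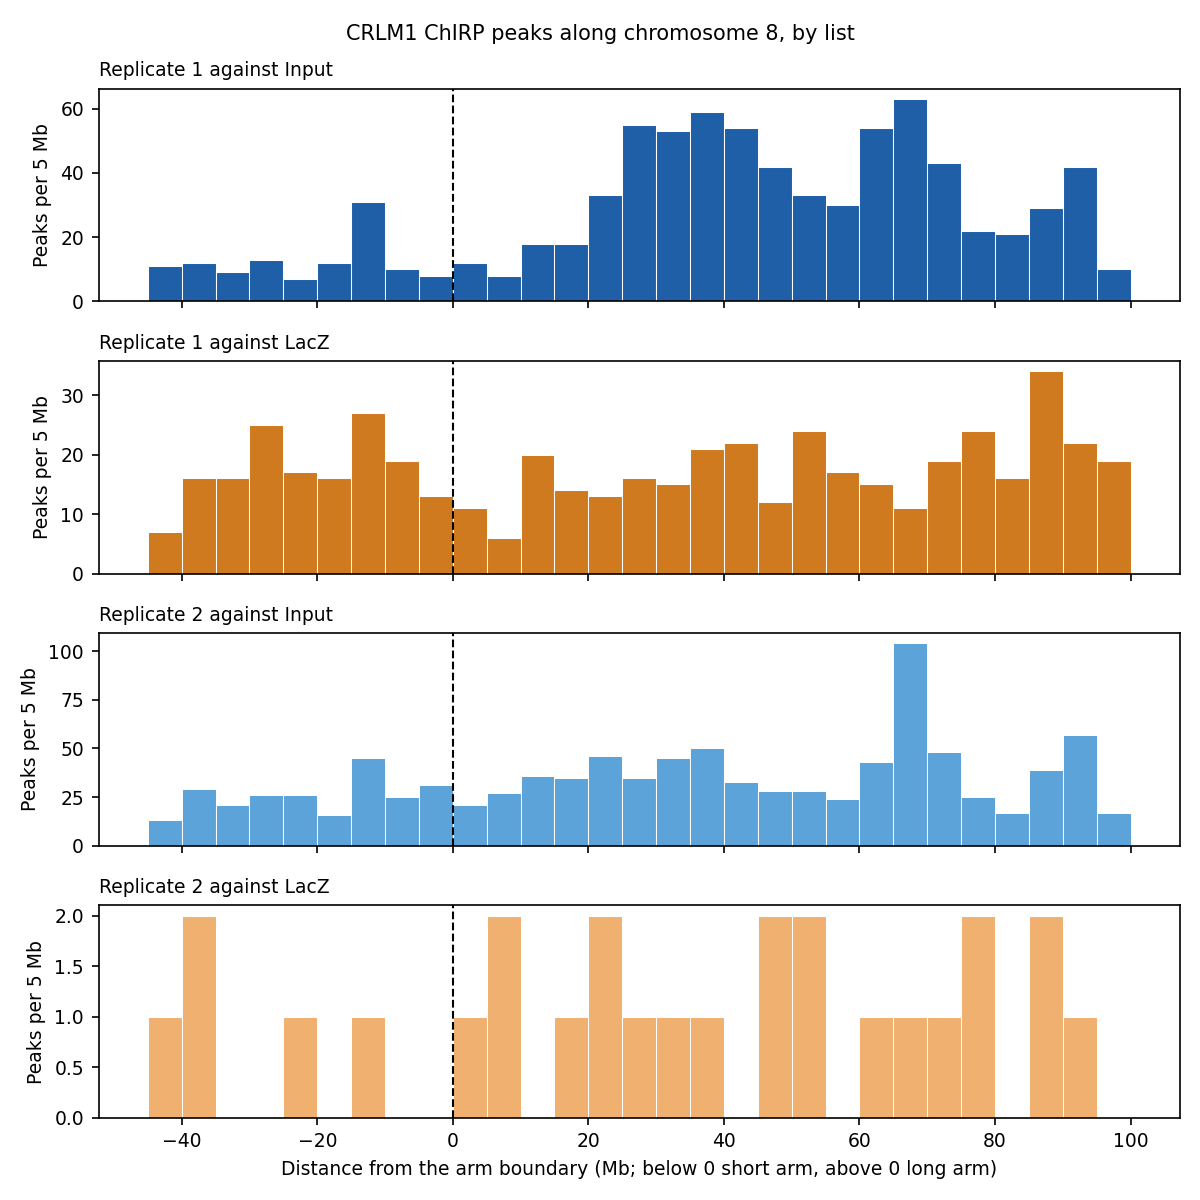
Number of peaks in each 5 Mb bin along chromosome 8, with 1 panel of its own scale for each of the 4 peak lists and the distance from the boundary of the arms in Mb on the horizontal axis (short arm below 0, long arm above 0). Many bars of the long arm rise above those of the short arm in the lists against Input, with the highest bar of both in the same bin at 63 and 104 peaks, whereas replicate 1 against LacZ has bars of similar height on both arms.

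Per Mb of ungapped sequence, the short arm carried 2.52 peaks and the long arm 6.99 in Input-1, a long to short ratio of 2.77 (exact 95% binomial interval 2.27 to 3.41). In Input-2 the densities were 5.18 and 7.58, a ratio of 1.46 (1.26 to 1.70). The short arm density of replicate 2 was thus over that of replicate 1, and the long arm densities were closer to each other. Against LacZ, replicate 1 had 3.48 and 3.52 peaks per Mb, a ratio of 1.01 (0.835 to 1.23), and replicate 2 had 0.112 and 0.210, a ratio of 1.88 (0.690 to 6.39). The interval of the last ratio spans 1, and with 26 peaks a difference between the arms was not detectable.

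Averaged over replicates, the long arm share was 81.3% ± 6.73 (SD, n = 2) against Input and 75.03% ± 8.12 (SD, n = 2) against LacZ. The ratios averaged 2.12 ± 0.925 and 1.45 ± 0.616. The difference between the controls was smaller than both SDs for the share, whereas for the ratio it was smaller than the SD against Input and larger than that against LacZ. The direction between the controls also differed, with the higher share against Input in replicate 1 and against LacZ in replicate 2.

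**Figure D2:**
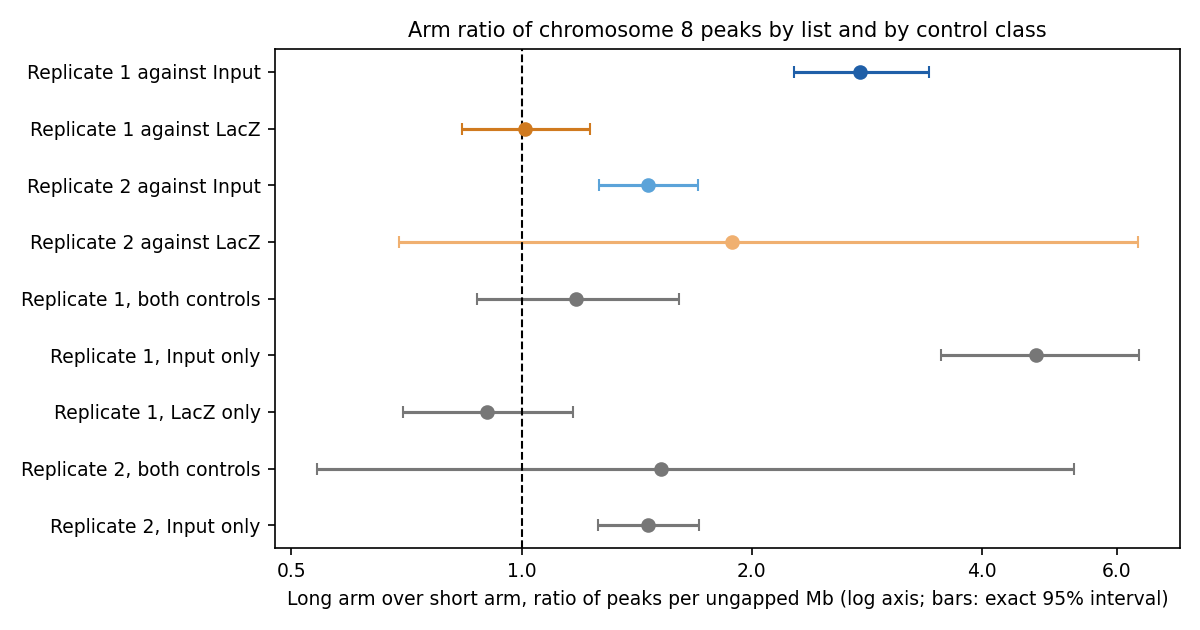
Long to short arm ratio of peaks per ungapped Mb on a log axis, for the 4 lists (coloured) and for the peaks of each replicate called against both controls or against 1 control alone (grey), with exact 95% binomial intervals as bars and a dashed line at 1. The replicate 1 peaks called against Input alone have the highest ratio, 4.71, and the replicate 1 peaks called against both controls sit at 1.18.

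The peaks were then divided by control within each replicate. Input-1 and LacZ-1 had 225 chromosome 8 peaks in common, and all 225 had identical ends in both lists. They made up 27.7% of Input-1 and 44.3% of LacZ-1 on this chromosome, beside 50.3% and 45.6% over all main chromosomes. Of them 62 lay on the short arm and 163 on the long arm, a density ratio of 1.18 (0.874 to 1.60). Another 587 peaks were called against Input alone, 51 on the short arm and 536 on the long arm (91.3%), a ratio of 4.71 (3.53 to 6.40). The 283 peaks called against LacZ alone split into 94 and 189, a ratio of 0.901 (0.700 to 1.17). The long arm surplus of replicate 1 was therefore carried by the peaks that the LacZ comparison did not return.

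Input-2 and LacZ-2 had 22 chromosome 8 peaks in common, or 2.22% of the former and 84.6% of the latter, beside 2.05% and 94.8% over all main chromosomes. They divided into 5 and 17, a ratio of 1.52 (0.539 to 5.28). The 968 peaks called against Input alone divided into 227 and 741, a ratio of 1.46 (1.26 to 1.70). The 4 peaks called against LacZ alone were all on the long arm. The both-control and Input-only ratios of replicate 2 were close, unlike those of replicate 1, and a difference between replicates was not tested.

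The classes of replicate 1 also differed in score and base composition. The score is the value the peak caller wrote for each peak, on a scale that the lists do not state, with a floor of 50. Its median was 66.05 among chromosome 8 peaks called against both controls, 55.38 among those called against Input alone and 55.65 among those called against LacZ alone. The median GC content of the peaks was 38.5%, 36.5% and 42.98% in that order. The part of base composition in the arm difference was not tested.

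Chromosome 8 as a whole makes up 4.93% of the ungapped main chromosomes. It held 8.70% of the Input-1 peaks, 4.93% of LacZ-1, 5.90% of Input-2 and 7.16% of LacZ-2. By peaks per Mb it ranked 1 of 24 chromosomes in the first of these lists, 15 in the second, 3 in the third and 4 in the fourth.

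Set against the other main chromosomes, the short arm had a density ratio of 0.827 (0.681 to 0.996) in Input-1 and 0.916 (0.801 to 1.04) in Input-2. The long arm had 2.29 (2.12 to 2.48) and 1.34 (1.25 to 1.44). The high peak number of chromosome 8 in both Input-called lists thus lay on the long arm. The short arm stood slightly below the other chromosomes in Input-1, and its interval spanned 1 in Input-2. In LacZ-1, the short arm was at 0.992 and the long arm at 1.00 (0.899 to 1.12). In LacZ-2 they were at 0.925 and 1.74 (1.06 to 2.70). X and Y are among the other chromosomes and had the lowest densities in all 4 lists. Against autosomes alone, chromosome 8 as a whole had a ratio of 1.74 in Input-1 and 1.14 in Input-2, beside 1.84 and 1.21. In LacZ-1 it was 0.942 beside 0.9998, and in LacZ-2 1.40 beside 1.49. The arms were not set against autosomes alone, so their ratios rest on a comparison whose density X and Y lower.

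**Figure D3:**
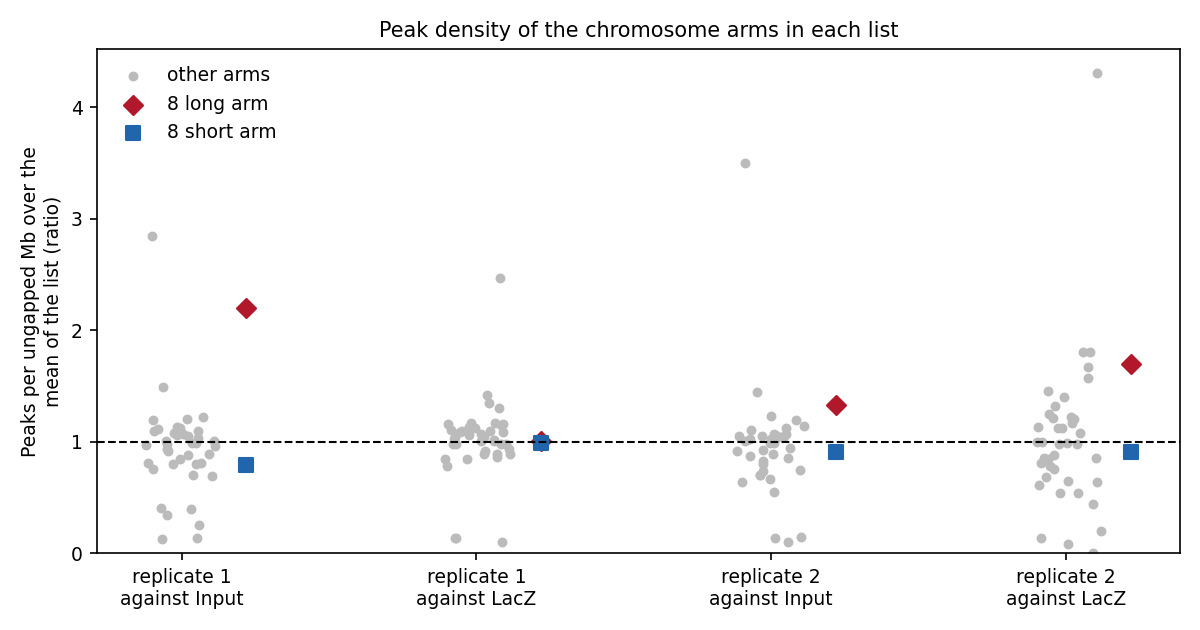
Peaks per ungapped Mb of 42 chromosome arms in each of the 4 lists, divided by the mean density of the list (dashed line at 1), with 8q as a red diamond, 8p as a blue square and the other arms in grey. The long arm of chromosome 8 ranks 2, 25, 3 and 4 from left to right and the short arm 33, 26, 27 and 24, and the highest point of each column is 5p.

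Among 42 chromosome arms of at least 5 Mb of ungapped sequence, with Y left out, 8q ranked 2 in Input-1, 3 in Input-2, 25 in LacZ-1 and 4 in LacZ-2. The short arm ranked 33, 27, 26 and 24. The first place belonged to 5p in all 4 lists, with 9.02 and 20.01 peaks per Mb against Input and 8.65 and 0.532 against LacZ. For 5p the LacZ-called density of replicate 1 was close to the Input-called one, whereas for 8q it was 3.52 beside 6.99.

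HCT116 is known to carry parts of some other arms in extra copies too, and their values are set beside those of 8q. On 10q the densities against Input were 3.59 and 5.75 peaks per Mb (ranks 7 and 21), on 16q they were 2.57 and 4.74 (29 and 31), and on 17q 3.13 and 4.21 (20 and 34). In LacZ-1 these arms had 3.54, 4.06 and 4.73 peaks per Mb, at ranks 23, 8 and 3. In LacZ-2 they had 0.150, 0.0665 and 0.206, at ranks 12, 37 and 5, the last of them next to 8q at 0.210. The number of copies was not measured in these files, and its part in the counts was not tested.

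Along the chromosome, the peaks of the Input-called lists crowded in the middle of the long arm. In Input-1 the bins of 5 Mb held between 1.4 and 6.2 peaks per Mb on the short arm, with a median of 2.23. On the long arm they held between 1.6 and 12.6, with a median of 6.6. In Input-2 the medians were 5.2 on the short arm (range 2.63 to 9) and 7 on the long arm (3.4 to 20.8). The bins of the arms overlapped in both replicates, and more so in replicate 2. In LacZ-1, the medians were 3.23 and 3.3 peaks per Mb.

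The fullest bin was the same in both Input-called lists, at 110 to 115 Mb, and it held 63 and 104 peaks. It has the lowest GC content of all bins, 34.4%, and 1 protein-coding gene, CSMD3, which codes for a large membrane protein with CUB and Sushi domains. LacZ-1 held 11 peaks in that bin and 34 in its own fullest bin, at 130 to 135 Mb, where the GC content is 42.1%. On the short arm the fullest bin of Input-1, Input-2 and LacZ-1 lay at 30 to 35 Mb, with 31, 45 and 27 peaks. It holds NRG1, the gene of neuregulin 1, a ligand of ERBB receptors.

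For a coarser view, the long arm was divided into 3 stretches at bounds set after the bins had been seen. Between 45 and 65 Mb, Input-1 had 2.81 peaks per Mb, Input-2 had 5.97 and LacZ-1 had 2.56. Between 65 and 120 Mb these were 9.44, 8.81 and 3.37, and from 120 Mb to the end 4.94, 6.18 and 4.63. The proximal stretch of 8q thus had densities near those of the short arm in both Input-called lists, and the middle stretch had the highest. The LacZ-called densities of replicate 1 were highest in the distal stretch.

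Over the 29 bins of 5 Mb, density and GC content ran in opposite directions in the Input-called lists, with a Spearman rho of -0.72 in replicate 1 and -0.62 in replicate 2. In LacZ-1 rho was 0.09 and in LacZ-2 -0.05. The densities of both Input-called lists had a rho of 0.69 with each other, whereas LacZ-1 and Input-2 had 0.14. Bins of 1 list share a library and neighbouring bins resemble each other, so these values describe the chromosome and carry no p.

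**Figure D4:**
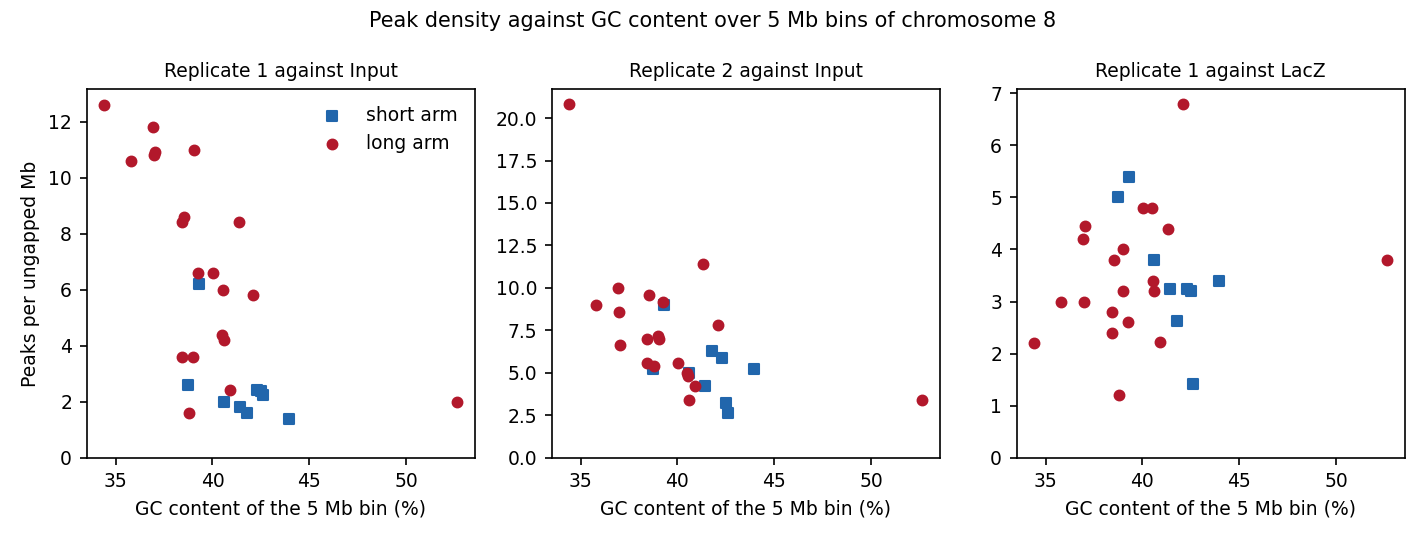
Peaks per ungapped Mb of each 5 Mb bin against its GC content in percent, in 3 panels with vertical scales of their own (replicate 1 against Input, replicate 2 against Input and replicate 1 against LacZ), with squares for short arm and circles for long arm bins. The points fall from left to right in both panels against Input (rho of -0.72 and -0.62), where the bin at the far left, with 34.4% GC, is the fullest.

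The short arm is richer in GC than the long arm, at 41.5% against 39.6%. Its 9 bins span 38.7% to 43.98% GC, and 11 long arm bins lie inside this range. In Input-1, those 11 bins held 5.51 peaks per Mb against 2.52 on the short arm, and the 8 long arm bins of lower GC content held 9.66. In Input-2 they held 6.46 against 5.18, and the bins of lower GC content 9.66. The ratios of the 11 bins to the short arm were 2.19 (1.76 to 2.74) and 1.25 (1.05 to 1.48). The 11 bins were still lower in GC than the short arm bins, with means of 40.2% and 41.5%, and 4 short arm bins lay above all of them, so the sets share a range and are not matched. In LacZ-1 the densities were 3.69 in the 11 bins, 3.48 on the short arm and 3.23 in the bins of lower GC content. This restriction was chosen after seeing the data.

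The median Input-called peak also had a lower GC content than its whole bin. The median peak was 1.41 percentage points below its bin on the short arm and 1.74 below it on the long arm in replicate 1, and 1.49 and 1.21 below it in replicate 2. In LacZ-1 the median peak lay above its bin, by 0.48 on the short arm and 0.74 on the long arm. In LacZ-2 it lay 2.08 above its bin on the short arm (5 peaks) and 0.80 below it on the long arm (21 peaks). The difference from the Input-called lists was thus seen on both arms for LacZ-1, but not on the long arm for LacZ-2. Other sequence of the same width was not measured, so whether peaks were low in GC for their bins was not tested.

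Whether the replicates called the same sites on chromosome 8 was asked by overlap of at least 1 bp. Of the 812 Input-1 peaks, 14 overlapped an Input-2 peak, which was 1.72% (0.946 to 2.88), beside 1.73% over all main chromosomes. From the other side it was 14 of 990, or 1.41%, beside 0.936%. All 14 regions were on the long arm and 0 on the short arm, beside 86.1% of all Input-1 and 76.6% of all Input-2 peaks on the long arm. Between 65 and 120 Mb lay 11 of them, beside 519 of the 812 Input-1 and 484 of the 990 Input-2 peaks. With 14 regions, nothing is read from these counts. Against LacZ, 0 of 508 replicate 1 peaks were found again, which allows a share of up to 0.724%, beside 0.0582% over all main chromosomes. Likewise 0 of 26 replicate 2 peaks were, beside 1.65%.

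Within 10 kb of midpoint to midpoint, overlapping pairs included, 116 of the 812 Input-1 peaks had an Input-2 peak (14.3%), beside 15.8% over all main chromosomes. In the other direction it was 127 of 990 (12.8%), beside 8.71%. Against LacZ it was 2 of 508 (0.394%), beside 0.504%, and 2 of 26 (7.69%), beside 12.1%. The median distance from an Input-1 peak to the nearest Input-2 peak was 44.6 kb. Of the 14 shared regions, 4 were also called in LacZ-1, beside 27.7% of all Input-1 peaks of the chromosome. In LacZ-2 it was 0, beside 2.22% of the Input-2 peaks. A protein-coding gene was overlapped by 2 of the 14, at TRPS1 and ZFPM2, and the share over all peaks was not computed. In 6 of the 14 both scores were below 60.

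The shared region with the best rank lay between genes at 114922019 to 114922592 in replicate 1, with a score of 106.34, and at 114922444 to 114922882 in replicate 2, with a score of 60.1. It is 486 kb from TRPS1, which codes for a GATA-type zinc finger repressor of transcription. The second lay over the noncoding C8orf34-AS1 and upstream of an annotated start site, at 68307931 to 68308394 (103.06) and 68308363 to 68308850 (53.41). It shared only 32 bp between replicates. The third was near the end of the long arm, 11.1 kb from the zinc finger gene ZNF16, at 144961941 to 144962132 (78.17) and 144961946 to 144962362 (62.4). Both of these were also in the LacZ-called list of replicate 1.

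The next region lay 370 kb from IL7, the gene of interleukin 7, at 79175768 to 79176147, with scores of 60.39 and 71.15. Another was in an intron of the noncoding ENSG00000286937, 51.3 kb from CSMD3, at 113488227 to 113488675 (69.72 and 55.98), and was also called against LacZ in replicate 1. A further one was in an intron of LINC02055 at 136474543 to 136475135 (66.11 and 60.35). The protein-coding gene nearest to the last of these was KHDRBS3, an RNA-binding protein gene, at a distance of 818 kb.

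Of the next 4 regions, 1 lay in an intron of ENSG00000253796, 95.8 kb from TMEM74, and 1 in an intron of ENSG00000254394, 426 kb from SNX16, a sorting nexin gene. Another was 10.0 kb from BHLHE22, which codes for a basic helix-loop-helix transcription factor, and it was also in LacZ-1. The last was 741 kb from RALYL, a gene of the RALY family of RNA-binding proteins. Their scores lay between 51.31 and 66.8.

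The highest scores of the chromosome were mostly not shared between replicates. In Input-1, the first peak (133.83) lay in an intron of the noncoding ENSG00000254366 at 77527007 to 77527675 and was in no other list. The second (130.09) lay in an intron of IL7 at 78750775 to 78751305 and was also called against LacZ (120.03). The third, at 5781583 to 5782230 on the short arm, lay 624 kb from MCPH1 and was called against both controls (118.04 and 130.69). These peaks had the ranks 86, 90 and 113 in their list, so the strongest sites of that list lay on other chromosomes.

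In LacZ-1, the first peak (137.4) was intergenic at 94617985 to 94618653, 22.4 kb from ESRP1, an epithelial splicing regulator gene. The second was the short arm peak near MCPH1. The third (127.5) lay 54.3 kb from HNF4G, a nuclear receptor gene of gut epithelium, and was also called against Input (83.75). The first of these 3 was absent from the Input-called list of the same library.

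In Input-2, the first peak (133.98) was intergenic at 89509204 to 89509608, 248 kb from RIPK2, a kinase gene of innate immunity. The second (126.91) lay in an intron of LINC02055 at 137059240 to 137059760, and the third (125.22) was intergenic at 110747215 to 110747842. Each was in this list alone. In LacZ-2 the highest score was 80.2, at 84993768 to 84994624, 71.9 kb from RALYL. The second, in an intron of BMP1 at 22185370 to 22185877 on the short arm (69.38), was also called against Input (98.6). BMP1 codes for a metalloprotease that trims procollagens. The third (63.56) lay in an intron of the noncoding ENSG00000253619.

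Most chromosome 8 peaks had scores near the floor on both arms, as did most peaks of the other main chromosomes. Scores below 60 made up 62.9%, 60.8% and 57.3% of chromosome 8 peaks in Input-1, Input-2 and LacZ-1. On the other chromosomes these shares were 65.8%, 59.5% and 58.8%. Against Input, scores below 60 made up 68.1% of the short arm and 62.1% of the long arm peaks in replicate 1, and 62.9% and 60.2% in replicate 2. A score of at least 100 was reached by 2 short arm and 23 long arm peaks in replicate 1, and by 4 and 16 in replicate 2. As shares these were 1.77% and 3.29% in replicate 1, beside 2.31% on the other chromosomes. In replicate 2 they were 1.72% and 2.11%, beside 1.63%. In LacZ-1 there were 2 and 7, and in LacZ-2 0 and 0. Median scores on the short and long arm were 55.92 and 56.76 in Input-1 and 56.68 and 57.73 in Input-2. In both Input-called lists the arms thus differed in the number of peaks far more than in their scores. This did not hold in LacZ-1, where the arms had nearly the same density. There, scores below 60 made up 65.4% of the short arm and 53.7% of the long arm peaks, with medians of 56.9 and 59.1.

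Genes on the long arm were more often hit than genes on the short arm in both Input-called lists. A gene counted as hit when a peak touched it or lay within 5 kb upstream of where it starts. On the short arm, 27 of 284 protein-coding genes had a peak in Input-1 (9.51%), and on the long arm 115 of 418 (27.5%), beside 13.1% of all protein-coding genes. In Input-2 the shares were 21.1% and 29.4%, beside 22.2%. In LacZ-1 they were 20.1% and 24.9%, beside 20.2%, and in LacZ-2 1.06% and 2.39%, beside 1.02%. Counting all 2541 annotated genes of the chromosome, 276, 362, 276 and 18 had a peak in Input-1, Input-2, LacZ-1 and LacZ-2, or 10.9%, 14.2%, 10.9% and 0.708%, beside 7.25%, 12.1%, 10.3% and 0.495% over the genome.

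Long genes held many of these peaks. On the long arm, CSMD3 (112222928 to 113436939) had 18 peaks in Input-1 and 24 in Input-2, but 1 in LacZ-1 and 0 in LacZ-2. Per Mb of gene, this was 14.8, 19.8, 0.824 and 0. RALYL (84182787 to 84921844) had 10 and 12 peaks against Input and 1 and 0 against LacZ. ZFPM2 (104590733 to 105804539), which codes for a cofactor of GATA factors, had 8 and 11 against Input and 1 and 0 against LacZ. VPS13B (99013266 to 99877580), a lipid transfer protein gene of the Golgi, had 11 and 8 against Input and 4 and 1 against LacZ. These 4 genes were picked for their counts in the Input-called lists, and LacZ-2 holds 26 chromosome 8 peaks in all, so nothing is read from their lower counts against LacZ.

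The most hit long arm genes of LacZ-1 were different ones. KCNQ3 (132120861 to 132481095), a potassium channel gene, had 5 peaks there, 3 in Input-1 and 1 in Input-2. TRAPPC9 (139727725 to 140458579), a vesicle tethering gene, had 5, 1 and 1 in the same order. CNGB3 (86553977 to 86743675), which codes for a channel subunit of cone cells, had 4, 5 and 1.

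On the short arm, NRG1 (31639222 to 32855666) had 10 and 12 peaks against Input and 7 and 0 against LacZ. CSMD1 (2935353 to 4994972), a relative of CSMD3, had 10 and 10 against Input and 5 and 1 against LacZ. SGCZ (14084845 to 15238431), a sarcoglycan gene, had 4 and 9 against Input and 3 and 0 against LacZ. PSD3 (18527303 to 19084730), an exchange factor gene for ARF6, had 1 and 1 against Input and 4 and 0 against LacZ.

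CSMD1 is longer than CSMD3, at 2060 kb against 1214 kb, and had 4.86 peaks per Mb of gene in each replicate against Input, against 14.8 and 19.8 in CSMD3. The 4 short arm genes among the 10 longest of the chromosome span 5.40 Mb and held 24 and 31 peaks against Input and 15 in LacZ-1. The 6 long arm genes span 5.70 Mb and held 47, 60 and 11. DLGAP2, a gene of a postsynaptic scaffold protein on the short arm, is among the 10 longest and had 0 peaks in all 4 lists.

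Among 30 long arm genes that are known to be gained in cancers, 12 had a peak in Input-1, 14 in Input-2, 11 in LacZ-1 and 1 in LacZ-2. As shares these were 40%, 46.7%, 36.7% and 3.33%, beside 27.5%, 29.4%, 24.9% and 2.39% of all long arm protein-coding genes and 13.1%, 22.2%, 20.2% and 1.02% of those of the genome. Their median length was 75.5 kb, against 27.5 kb over all protein-coding genes. Both Input-called lists hit 8 of them, among them PRKDC, NCOA2, E2F5, RUNX1T1, EIF3E, TRPS1 and ASAP1, and none of the 30 was hit in both LacZ-called lists. The share of all long arm protein-coding genes hit in both was not computed, so nothing is read from these counts.

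TRPS1 (115408496 to 115809673) had 5 and 8 peaks against Input and 0 in both lists against LacZ. EIF3E (108162787 to 108443496), a subunit gene of a translation initiation factor, had 5 and 3 against Input and 0 against LacZ. NCOA2 (70109782 to 70403808), a nuclear receptor coactivator gene, had 2 and 3 with 0 against LacZ. RUNX1T1, a corepressor gene, had 1 and 2 with 0 against LacZ. These genes were named because both Input-called lists hit them, and LacZ-2 holds 26 chromosome 8 peaks in all. Nothing is therefore read from their lack of peaks against LacZ.

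PRKDC, E2F5 and ASAP1 also had peaks in the LacZ-called list of replicate 1. PRKDC, the catalytic subunit gene of DNA-dependent protein kinase, had 2 and 1 against Input and 2 there. E2F5, a transcription factor gene of the cell cycle, had 1 and 2 against Input and 1 there. ASAP1, an ARF GTPase-activating protein gene, had 3 and 2 against Input and 2 there.

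In a list of 24 genes of the short arm, an arm often lost in cancers, 6 had a peak in Input-1, 11 in Input-2, 12 in LacZ-1 and 2 in LacZ-2. As shares these were 25%, 45.8%, 50% and 8.33%, beside 9.51%, 21.1%, 20.1% and 1.06% of all short arm protein-coding genes and 13.1%, 22.2%, 20.2% and 1.02% of those of the genome. Their median length was 109 kb. CSMD1, MCPH1, TUSC3, SGCZ and NRG1 were hit in both Input-called lists, and CSMD1 and MCPH1 in all 4. The share of all short arm protein-coding genes hit in both lists, or in all 4, was not computed, so nothing is read from this. MCPH1 codes for a protein of chromosome condensation and DNA repair, and had 1, 1, 2 and 1 peaks in Input-1, Input-2, LacZ-1 and LacZ-2. TUSC3, a gene of the oligosaccharyltransferase complex, had 2, 3, 2 and 0 in that order. Gene length was not adjusted for in either list of genes.

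The short clustered genes of the chromosome held few peaks. Of 21 defensin genes, which code for antimicrobial peptides on the short arm, 0 had a peak in any list, at a median length of 2.44 kb. At that length, and beside 9.51% of short arm protein-coding genes hit in Input-1, nothing is read from this count. Of 11 genes of the LY6 family of surface proteins on distal 8q, 1 had a peak in Input-1 (GML) and 0 in the other lists, at a median length of 3.95 kb.

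The region around MYC was less dense than the rest of 8q in both Input-called lists. Between 126 and 129 Mb there were 12 peaks in Input-1, 10 in Input-2, 11 in LacZ-1 and 0 in LacZ-2. MYC itself (127735434 to 127742951) had 0 peaks in all 4 lists, in its body or in the 5 kb upstream of it.

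Per Mb, the region held 4 peaks in Input-1, where the rest of the long arm held 7.08, a ratio of 0.565 (0.290 to 0.993). In Input-2 it held 3.33 against 7.71, a ratio of 0.432 (0.206 to 0.799). For peaks at or above the median score of their list, the ratios were 0.607 (0.242 to 1.26) and 0.509 (0.186 to 1.12). Both of these intervals spanned 1, so the lower density was not settled for the stronger peaks. In LacZ-1 the region held 3.67 against 3.52, a ratio of 1.04 (0.516 to 1.89). With 0 peaks in LacZ-2, where 3 peaks would have been 1 per Mb, a difference from the 0.217 per Mb of the rest of the arm was not detectable. In absolute terms the 3 larger lists held nearly the same number of peaks in the region, and what differed was the rest of the long arm. That rest includes the dense stretch between 65 and 120 Mb. From 120 Mb to the end, Input-1 held 4.94 and Input-2 6.18 peaks per Mb. Against 10 Mb on either side of the region, the ratio was 0.620 (0.312 to 1.12) in Input-1, which spans 1. In Input-2 it was 0.417 (0.196 to 0.786). The region has a GC content of 40.6%, above the 39.6% of the arm.

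**Figure D5:**
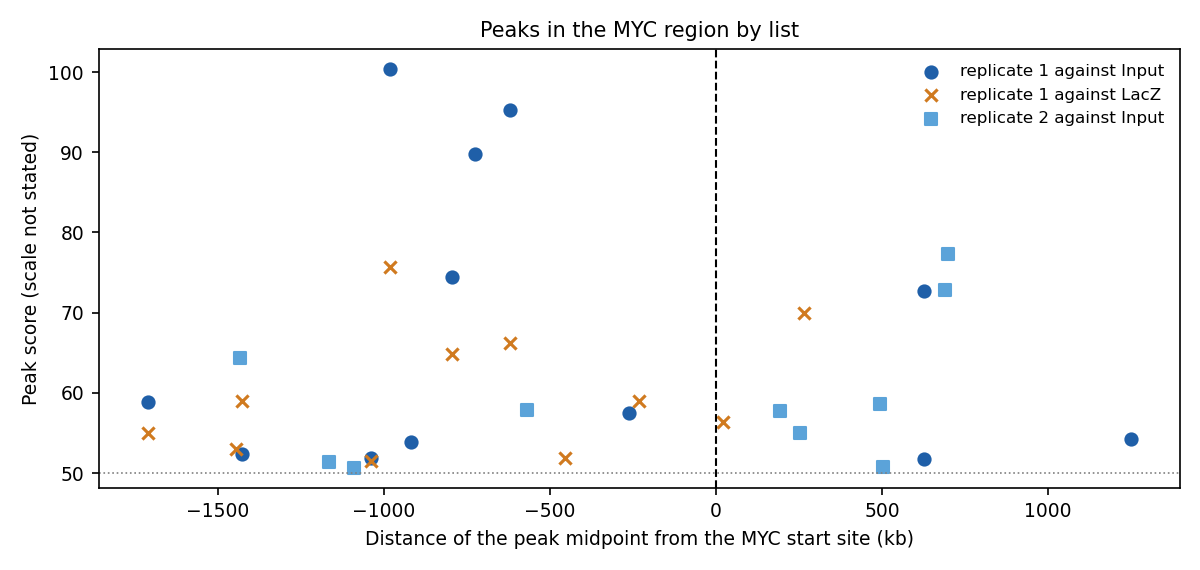
Score of each peak between 126 and 129 Mb of chromosome 8 against the distance of its midpoint from the MYC start site in kb (dashed line at 0), for the 3 lists with a peak there, with the score floor of 50 as a dotted line. The nearest peak lies 21.95 kb from the start site in replicate 1 against LacZ, and the highest score is 100.36 in replicate 1 against Input.

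The peak nearest to the MYC start site lay 263 kb upstream of it in Input-1, in an intron of CASC8, with a score of 57.48. In LacZ-1 it lay 21.95 kb downstream, between genes at 127757148 to 127757620, with a score of 56.36. In Input-2 it lay 192 kb downstream, in an intron of PVT1, with a score of 57.78. In LacZ-2 the nearest peak was 3845 kb away. The nearest site was thus a different one in each list.

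Of the 33 peaks of the region, 26 had their midpoint in a long noncoding RNA gene (78.8%), and such genes cover 78.7% of the region. PCAT1 (126556323 to 127419050) had 6 peaks in Input-1 and 3 in Input-2, and 5 in LacZ-1. The highest scores of the region were in its introns, at 126751531 to 126752541 (100.36 against Input and 75.67 against LacZ in replicate 1) and at 127113431 to 127114304, which is also an intron of CASC19 (95.22 and 66.21). Another PCAT1 peak of replicate 1, at 127008835 to 127009388 (89.82), was called against Input alone. PVT1 (127794526 to 128187101), whose promoter can compete with that of MYC for enhancers, had 0, 2 and 1 peaks in the same order of lists, the last of them at 127998407 to 127998987 (69.98).

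In Input-2 the highest scores of the region were a pair of peaks in introns of LINC00824, at 128433532 to 128434128 (77.28) and 128424583 to 128425115 (72.86). The third (64.41) was intergenic at 126301491 to 126302091. CASC19 had 1 peak in each of these 3 lists, and POU5F1B, a retrogene of a stem cell factor, had 0. Of the 43 annotated genes that lie in or reach into the region, 3 are protein-coding and 22 are long noncoding. With peaks anywhere along these genes counted, 8, 7 and 6 of the 43 had a peak in Input-1, Input-2 and LacZ-1. Some of these peaks lay beyond the bounds of the region, such as those of LINC02964, LINC00861 and CCDC26 in Input-2. The counts are thus not for peaks of the region alone, and nothing is read from them. These are 18.6%, 16.3% and 13.95%, beside 10.9%, 14.2% and 10.9% of all chromosome 8 genes and 7.25%, 12.1% and 10.3% of those of the genome. None of the 14 regions shared between replicates fell between 126 and 129 Mb, where 12 of the 812 Input-1 and 10 of the 990 Input-2 peaks lay.

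By feature, introns held 57.8% of the long arm peaks in Input-1, 48.8% in Input-2 and 47.4% in LacZ-1, where introns make up 50.6% of the sequence of the arm. The 5 kb upstream of start sites held 7.15%, 8.97% and 11.1%, against 11.1% of the sequence. On the short arm the upstream shares were 8.85%, 12.9% and 12.2%, against 14.5% of the sequence. Of these upstream shares, the interval lay below the share of the sequence for the long arm of Input-1 (5.36 to 9.32), and it included that share in the other five. Coding or untranslated exon sequence held 10, 11 and 7 peaks on the long arm and 0, 5 and 5 on the short arm in the same order of lists. On the long arm these were 1.43%, 1.45% and 1.99% of the peaks, against 1.92% of the sequence. On the short arm they were 0%, 2.16% and 3.21%, against 2.51% of the sequence. Each interval included the share of the sequence, so nothing is read from these counts.

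Chromosome 8 peaks had median widths of 414 bp in Input-1, 418 bp in Input-2, 422 bp in LacZ-1 and 526.5 bp in LacZ-2. Peaks of the long arm were slightly wider than those of the short arm in the 3 larger lists, with 423 against 384 bp, 424 against 409 bp and 432.5 against 401.5 bp. The widest peak of the chromosome measured 1011 bp, which was the PCAT1 peak of replicate 1.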

How the data were processed

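The 4 peak lists came from 6 HCT116 libraries, 2 each of the CRLM1 probes, the LacZ probes and Input. According to the methods of the study and the submitters' processing notes, cutadapt removed adapters and Bowtie2 mapped the reads (GRCh38). The methods state peak calling of the CRLM1 and LacZ groups over Input by a named MACS2 version with a q-value cutoff, and removal of peaks that LacZ shares. That each list here sets 1 replicate against 1 control, Input or LacZ, comes from the sample labels. Each list deposited by the authors gives a start, an end and a score per peak. The layout of the lists and a lowest score of about 50 resemble output of MACS releases before that version, so whether the stated version and cutoff made these lists is unsettled, as is the unit of the score.

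Python 3.11.15, numpy 2.4.6, scipy 1.17.1 and matplotlib 3.10.9 were used. The members, gene lists and comparisons were chosen with earlier results of these data known. Replicates were sorted by the sample titles, and no test was used. Starts were converted to 1-based positions, and 151 peaks on other contigs or the mitochondrial genome were left out. Densities used ungapped sequence, intervals were exact binomial (Clopper-Pearson, 95%) for shares and for counts of 2 stretches given their sum. Midpoints were assigned to untranslated region or coding sequence, other exon, 5 kb upstream of a start site, intron or intergenic, in this order, with GENCODE release 44. Counting scripts were tested on simulated data.

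Named were the 3 highest scores of each list and of the MYC region per list, up to 10 regions shared between replicates, MYC, PVT1, list genes hit in both replicates against 1 control, and the 3 most hit protein-coding genes per arm. An item that meets this rule is not reported here. CASC8, POU5F1B, DLGAP2 and GML were added after their values were seen. Alternatives covered score, overlap, bins, windows, base composition and control class. Repeat content was not computed, since the genome used here does not mark repeats. Unused columns of per-sample values numbered 0.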

Additional observations from a re-analysis of the deposited data

How the results depend on the processing

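Of 137 alternative values for 46 results, 119 lay within the counting interval of the reported value and 18 did not. For counts the bound was 1.5 times, and for means over replicates it was the SD. Some values could not move. Since 0 peaks crossed the arm boundary, assigning arms by any overlap changed nothing, and leaving out either of 2 replicates always stays within the SD. No ratio whose interval excluded 1 changed side. Among ratios whose interval spanned 1, 9 values did: the LacZ-1 arm ratio became 0.99973 without midpoints between 40 and 50 Mb, 0.961 without the fullest long arm bin and 0.901 for peaks called against LacZ alone; the LacZ-1 ratio of chromosome 8 to the others became 1.04 at or above the median score, 1.05 with gaps counted and 1.02 with peaks within 10 kb merged; the LacZ-1 ratio of the MYC region became 0.905 with 1 Mb more on either side and 0.780 against 10 Mb on either side; and the LacZ-2 ratio of chromosome 8 to the others went from 1.49 to 0.987 at or above the median score. In LacZ-2, the fullest bin went from 2.35 to 7.99 times the rest at or above the median score and the upstream share from 11.5% to 3.85% with a 1 kb window, inside wide intervals. The long to short arm ratio of Input-1 became 2.19 with long arm bins inside the GC range of the short arm and 4.71 for peaks called against Input alone, and that of Input-2 became 1.25 with that restriction and 1.75 for peaks at or above the median score, where the long arm share was 79.6%. All these Input-called ratios stayed above 1. The MYC region ratio stayed below 1 in both Input-called lists, but its interval came to include 1 in both at or above the median score. In Input-1 it also did so against 10 Mb on either side (0.620, 0.312 to 1.12). With 1 Mb more on either side both intervals excluded 1. The fullest bin of Input-2 was 2.44 times as dense as the rest of the chromosome with bins of 10 Mb. With 1 kb in place of 5 kb upstream, upstream shares of chromosome 8 peaks fell to 1.72%, 2.36% and 2.42% in Input-1, LacZ-1 and Input-2, and intron shares became 61.7%, 55.5% and 53.6%. At or above the median score, the intron share of LacZ-1 was 54.2%, and 168 genes in LacZ-1, 210 in Input-2 and 5 in LacZ-2 had a peak. Shared regions against Input numbered 7 with a reciprocal overlap of 50% and 5 at or above the median score, since fewer peaks then qualify. Leaving out either replicate gave a long arm share of 76.6% to 86.1% against Input and 69.3% to 80.8% against LacZ. LacZ-2 gave no ratio for peaks called against LacZ alone, since 0 of them lay on the short arm. The restriction by GC range, the peaks called against 1 control alone and the omission of the fullest bin were chosen after seeing the data. The causes were not tested. No paired analysis was possible because the results come from no test, and each list already sets a pull-down against the control of its own replicate number. Unknown depth limits all comparisons between lists, and the 26 chromosome 8 peaks of LacZ-2 limit every value from that list.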
